A study of Mus musculus with 12 samples.

Results

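Aminoacyl-tRNA synthetases attach each amino acid to its transfer RNA and so supply every ribosome. When charged transfer RNA runs short, or when the endoplasmic reticulum is under stress, kinases phosphorylate the initiation factor eIF2, bulk translation slows, and the mRNA of the transcription factor ATF4 is translated more. ATF4 in turn is known to raise transcription of many of the synthetases, of enzymes that make asparagine and serine, and of mitochondrial enzymes that pass one-carbon units from serine to folate. Growing tissues such as the embryonic kidney draw on these enzymes for protein and nucleotide synthesis.

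The genes described here are 31 named genes of this system, chosen by function but with earlier results of these data known. The group comprises 20 cytosolic tRNA synthetases, 5 regulators of the stress response (Atf4, Ddit3, Trib3, Chac1 and Sesn2), 4 enzymes of serine and asparagine synthesis (Asns, Phgdh, Psat1 and Psph) and 2 mitochondrial one-carbon enzymes (Shmt2 and Mthfd2). They were measured in whole kidneys of Pkd1-/- embryos, which lack functional polycystin-1 in all cells, and of wild-type (WT) littermates, all on the CD-1 background. The 4 groups of 3 arrays each were mutants at embryonic day 17.5 (E17.5), WT at E17.5, mutants at E14.5 and WT at E14.5. Each array held total kidney RNA. The study processed 3 kidney pairs at E14.5 and E17.5, each analysed separately. It does not say whether a pair came from 1 embryo or joined a mutant and a WT. The study describes no cysts in the mutants at E14.5 and many cysts at E17.5. The numbers in the sample names run across groups and tie no mutant to a littermate.

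The arrays were Illumina mouse bead arrays with 45281 probes. Each value is a probe's background-corrected, quantile-normalized brightness on the log2 scale (log2 intensity), so a difference of 1 is 2-fold. A probe was kept where it was detected above background (detection p under 0.05) on at least 3 of the 12 arrays, and the brightest kept probe stood for its gene. Of the 31 genes, 30 had a probe (Dars, the aspartyl-tRNA synthetase, had none) and 28 were measured. The single probes of Yars, the tyrosyl-tRNA synthetase, and of Psph, which catalyses the last step of serine synthesis, were detected on 0 arrays. In all, 51 of 66 probes were kept, and 17 genes had several kept probes. The kept probe seen on the fewest arrays was the third Vars probe, on 4, and of the 15 probes not kept the nearest was the second Gars probe, on 1. The representing probe was detected on all 12 arrays for 26 of the 28 genes, the exceptions being Hars, on 10, and Trib3, on 8. Differences were tested with limma over 14882 features, of which 11616 were named genes, and a gene was called at a Benjamini-Hochberg adjusted p under 0.05 over all of them. Intervals are 95% confidence intervals. In whole kidney, fewer cells of a type cannot be told apart from less RNA per cell.

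Between 42.8% and 44.8% of the probes were detected on each array. The Pkd1 probe was higher on every mutant array than on every WT array at both ages, by 0.64 at E17.5 (adjusted p = 0.135) and by 0.80 at E14.5 (adjusted p = 0.723, limma), which was not called. That direction is against the genotype labels. Since the probe's position relative to the disrupted part of the gene is not given in the sources used here, the probe checks no label, and mutant stands below for the arrays labelled so. WT E17.5 replicate 2 stood apart by liver genes: the mean log2 intensity of 5 measured liver markers was 11.75 on that array, against 7.67 and 8.64 on the other WT E17.5 arrays and 6.88 to 7.35 in E17.5 mutants. Mutant E14.5 replicate 35 and WT E14.5 replicate 57 had the Xist and Eif2s3y levels of female embryos.

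ATF4 and its partners bind the CARE element (C/EBP-ATF response element), here searched as TGATGNAA, or TTNCATCA on the opposite strand, from 250 bases before to 50 after each transcription start in RefSeq's promoters of GRCm38.p6. Promoters were found for 24 of the 31 genes and 8 of them (33.3%) held a match, against 4.51% of 27025 genes. They were 5 of 13 cytosolic synthetases, 2 of 5 regulators, 1 of 4 serine and asparagine enzymes and 0 of 2 one-carbon enzymes. The matches of the 7 measured genes are printed because CARE is the element through which ATF4 is known to act on such genes, 5' to 3' on the gene's strand, with the match in capitals and 40 bases on each side where the window allows.
Aars (chr8:111033690-111033891, plus strand): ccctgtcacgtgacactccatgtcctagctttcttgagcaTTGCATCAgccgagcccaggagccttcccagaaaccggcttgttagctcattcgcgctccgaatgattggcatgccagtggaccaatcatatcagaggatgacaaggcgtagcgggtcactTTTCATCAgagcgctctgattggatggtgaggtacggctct
Gars (chr6:55037931-55038018, plus strand): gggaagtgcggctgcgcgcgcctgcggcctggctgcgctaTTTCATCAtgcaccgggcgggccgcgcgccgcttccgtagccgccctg
Iars (chr13:49682097-49682179, plus strand): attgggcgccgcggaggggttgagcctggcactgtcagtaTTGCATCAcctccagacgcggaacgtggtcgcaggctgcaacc
Tars (chr15:11399626-11399713, minus strand): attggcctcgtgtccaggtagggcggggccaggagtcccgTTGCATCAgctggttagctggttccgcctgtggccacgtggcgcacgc
Trib3 (chr2:152344011-152344086, minus strand): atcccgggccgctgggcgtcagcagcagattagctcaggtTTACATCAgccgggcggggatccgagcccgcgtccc
Chac1 (chr2:119351009-119351096, plus strand): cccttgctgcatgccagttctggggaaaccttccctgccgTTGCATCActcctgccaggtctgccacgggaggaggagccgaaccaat
Asns (chr6:7693185-7693272, minus strand): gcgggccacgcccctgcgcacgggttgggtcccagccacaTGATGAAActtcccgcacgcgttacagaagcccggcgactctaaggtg

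Aars, the alanyl-tRNA synthetase, held 2 matches, with first bases at -112 and 10 relative to the transcription start. The match began at -30 in Gars (glycyl), at -15 in Tars (threonyl), at -23 in Asns (asparagine synthetase), at -193 in Chac1, at 8 in Iars (isoleucyl) and at 15 in Trib3. The promoter of Atf4 itself held none. A match describes these letters and is no evidence of binding. Of the genes that fell with age in mutants, as described further on, 3 of 8 with a promoter held a match, against 4 of 13 measured genes that did not fall. The counts in WT were 2 of 8 and 5 of 13.

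No gene of the group was called between mutant and WT kidneys by its brightest probe. At E17.5 the count was 0 of 28 genes, where 3.16% of all features were called by limma, and at E14.5 it was 0 of 28, where 0.0538% were called. At an unadjusted p under 0.05 the counts were 2 at E17.5 (Atf4 and Hars) and 0 at E14.5, against 20.1% and 3.20% of all features. The 3 arrays of each genotype did not overlap for 5 of 28 genes at E17.5 (Mars1, Wars, Atf4, Chac1 and Mthfd2) and for 1 at E14.5 (Farsa), against 24.2% and 9.12% of all features. The median log2 difference, mutant minus WT, was 0.01 at both ages, against 0.02 at E17.5 and 0.00 at E14.5 over all features. The genotype difference at E17.5 minus that at E14.5 was called for 0 of 28 genes, against 0.175% of all features, and had an unadjusted p under 0.05 for 1, against 10.7%.

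The intervals bound what these 12 arrays can tell. On the brightest probe of each of the 28 genes they ran between -0.75 and 0.92 at E17.5 and between -0.79 and 0.77 at E14.5. Differences larger than these were outside the interval of every gene's brightest probe. They do not bound the other kept probes, and the dimmer Atf4 probe, described below, was at -1.34 at E17.5. The E17.5 differences themselves lay between -0.35, for the glutamyl-prolyl-tRNA synthetase Eprs, and 0.47, for the histidyl-tRNA synthetase Hars (adjusted p = 0.228, limma). Hars was at 6.37, 5.75 and 5.66 in E17.5 mutants, against 5.45, 5.70 and 5.23 in E17.5 WT, where it was detected on 1 of 3 arrays. Its groups overlapped. The E14.5 differences lay between -0.38, for the phenylalanyl-tRNA synthetase subunit Farsa, and 0.30, for Chac1.

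**Figure D1:**
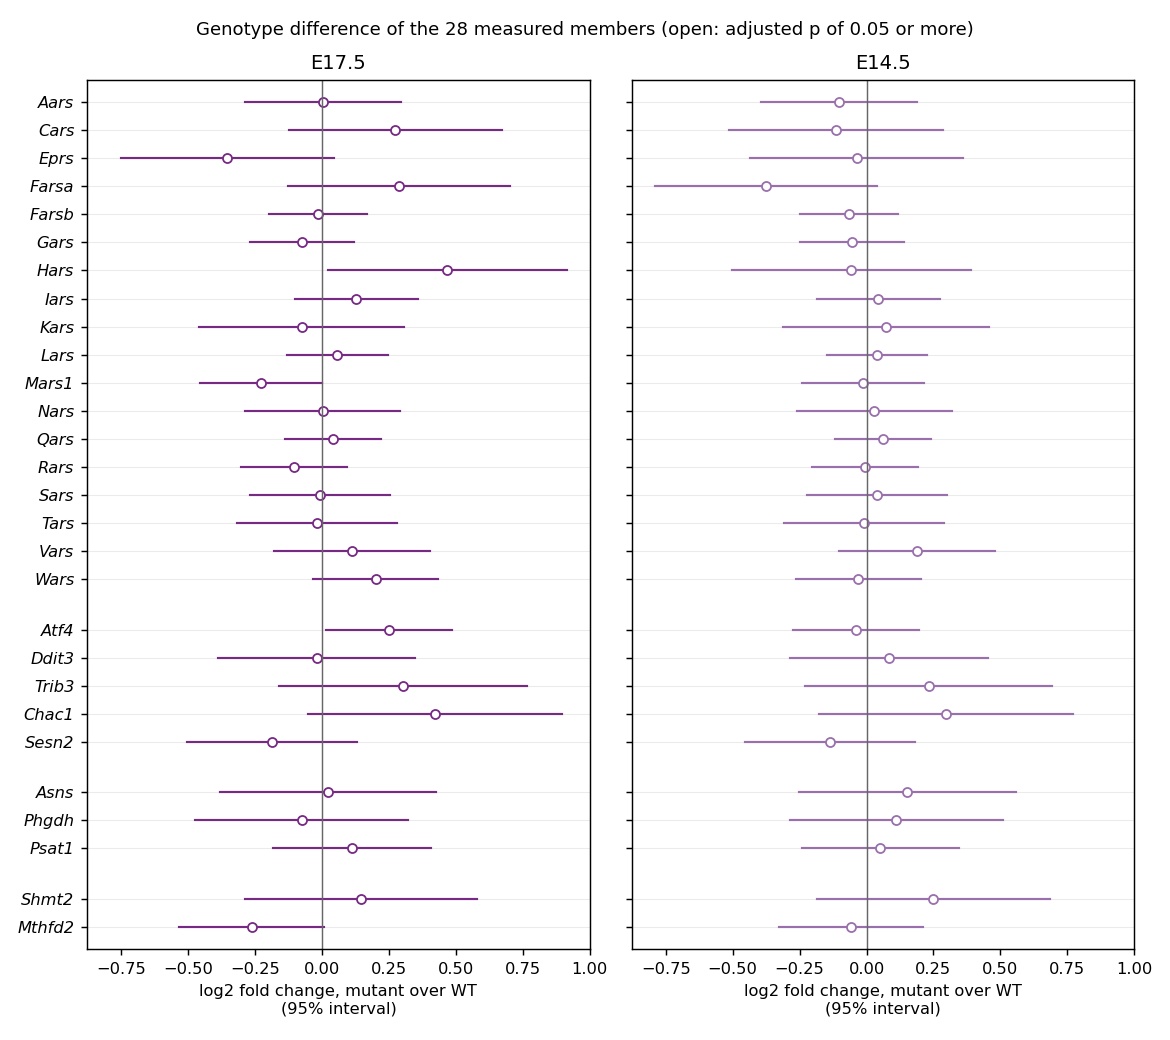
Log2 difference in intensity, mutant minus WT, for the 28 measured genes at E17.5 (left) and E14.5 (right), with 95% confidence intervals and 3 arrays per group. Open circles are genes that were not called, which is all of them, and the points lie between -0.35 and 0.47 at E17.5 and between -0.38 and 0.30 at E14.5.

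Farsa was the gene whose genotype difference moved most between ages. Its log2 intensity was 8.32, 8.07 and 7.53 in E17.5 mutants and 7.39, 8.02 and 7.65 in E17.5 WT, so the groups overlapped. At E14.5 it was 7.70, 7.77 and 7.77 in mutants and 8.12, 8.09 and 8.16 in WT, with the mutants lower on every array. The difference at E17.5 minus that at E14.5 was 0.66 and was not called (adjusted p = 0.420, limma).

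The stress regulators apart from Atf4 showed no called genotype difference. Ddit3 encodes CHOP, a transcription factor induced downstream of ATF4. It was at 7.89, 7.63 and 7.54 in E17.5 mutants and 7.51, 7.60 and 8.01 in E17.5 WT, and the groups overlapped. At E14.5 Ddit3 was at 7.64, 7.57 and 7.45 in mutants and 7.73, 7.14 and 7.53 in WT. Chac1, an enzyme that breaks down glutathione and is a target of ATF4, was at 6.95, 6.46 and 6.54 in E17.5 mutants, against 6.34, 6.09 and 6.26 in E17.5 WT. All 3 mutant arrays lay above the WT arrays, and the difference was 0.42 with an interval of -0.05 to 0.90. At E14.5 Chac1 was at 6.56, 6.79 and 7.53 in mutants and 6.74, 6.50 and 6.75 in WT, where the groups overlapped. Trib3, a pseudokinase that restrains the response, was dim in every group. It was at 6.28, 5.71 and 5.28 in E17.5 mutants (detected on 2 of 3 arrays) and 5.50, 5.46 and 5.42 in E17.5 WT (detected on 1). At E14.5 it was at 5.97, 5.62 and 6.09 in mutants and 5.81, 5.71 and 5.46 in WT. Sesn2, which signals low amino acids to the mTOR pathway, was at 6.13, 5.93 and 5.87 in E17.5 mutants and 5.95, 6.04 and 6.50 in E17.5 WT. The E14.5 values of Sesn2 were 5.71, 5.72 and 5.52 in mutants and 5.89, 5.61 and 5.86 in WT, and at both ages the groups overlapped.

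Atf4 was the one gene with a probe called between genotypes, and its probes had opposite signs at E17.5. Its brighter probe, which stood for the gene, was at 12.53, 12.43 and 12.39 in E17.5 mutants and 12.32, 12.27 and 12.01 in E17.5 WT. At E14.5 it was at 12.42, 12.55 and 12.58 in mutants and 12.41, 12.70 and 12.56 in WT. The mutants were above WT on every array at E17.5 and overlapped with WT at E14.5. The E17.5 difference was 0.25 ± 0.11 (SE, n = 3 each) with an interval of 0.02 to 0.49, and was not called (adjusted p = 0.220, limma).

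The dimmer Atf4 probe went the other way. It was at 7.94, 8.21 and 8.35 in E17.5 mutants and 9.54, 9.56 and 9.43 in E17.5 WT. At E14.5 it was at 8.76, 9.02 and 9.06 in mutants and 8.71, 8.90 and 8.99 in WT. The E17.5 mutants were the lowest of the 4 groups and the E17.5 WT kidneys the highest, with no overlap between them, and the E14.5 groups overlapped. In the limma fit of every kept probe, the E17.5 difference was -1.34 ± 0.13 (SE, n = 3 each), 2.54-fold lower in mutants (adjusted p = 0.000164). At E14.5 it was 0.08 with an interval of -0.20 to 0.35. The difference between those differences was -1.42 ± 0.18 (adjusted p = 0.00541, limma). With age this probe fell by 0.78 in mutants (adjusted p = 0.000506) and rose by 0.64 in WT (adjusted p = 0.00173). It was the only one of the 51 kept probes called between genotypes at E17.5 (1.96%, against 2.60% of all kept probes), and 0 of 51 were called at E14.5, against 0.0465%. It was also the only one called in the difference between ages, against 0.167%. Both probes are annotated to the same Atf4 transcript, on chromosome 15, and where in it each lies was not analysed here. So the direction of Atf4 between genotypes at E17.5 depended on the probe. That the Atf4 probes disagree was known when the genes were chosen, so these tests are no fresh evidence of it.

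**Figure D2:**
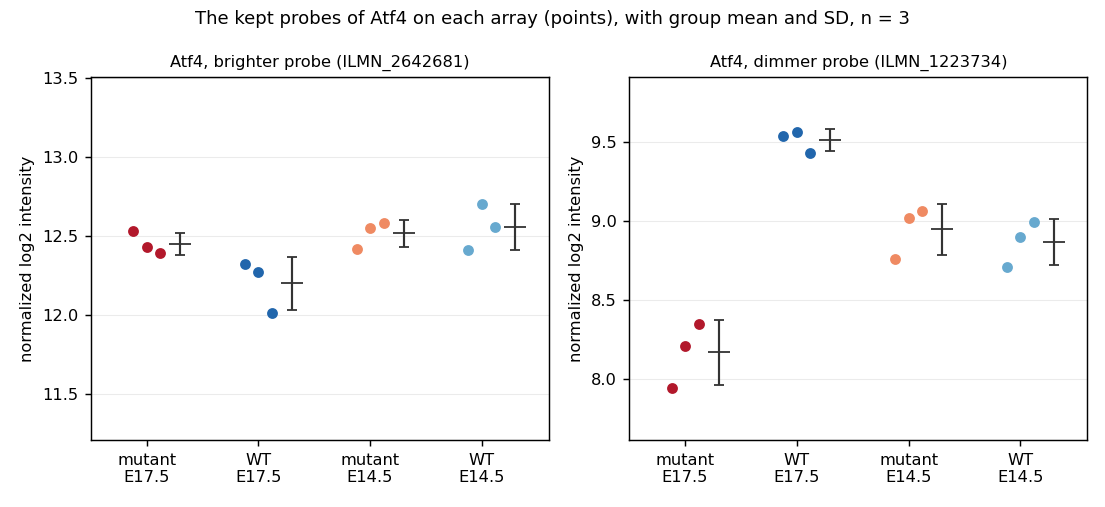
Log2 intensity of the brighter and the dimmer Atf4 probe on each of the 12 arrays, in the order mutant E17.5, WT E17.5, mutant E14.5 and WT E14.5, with group mean and SD (n = 3). The dimmer probe averaged 8.17 ± 0.21 in E17.5 mutants and 9.51 ± 0.07 in E17.5 WT, while the brighter probe lies between 12.01 and 12.70 on all 12 arrays.

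More genes of the group were called with age than between genotypes, as over all features. The mutants' change and the WT change share no arrays, although each E17.5 array also enters the genotype comparison. Between E14.5 and E17.5, 9 of 28 genes fell in mutants and 11 of 28 in WT, and 0 rose in either (limma). Of all features 21.4% fell in mutants and 23.5% in WT. Called in either direction were 43.1% and 43.6% of all features, against 3.16% between genotypes at E17.5. Of the 28 genes 32.1% were called in either direction in mutants and 39.3% in WT, below those shares with age. The number called with age is thus no result about the group. The median log2 change of the 28 genes was -0.19 in mutants, against -0.02 over all features, and -0.29 in WT, against -0.05. The arrays of the 2 ages did not overlap for 13 of 28 genes in mutants, against 56.1% of all features, and for 16 in WT, against 53.0%. These counts lay below or near the shares of all features and are no result about the group. Without WT E14.5 replicate 58 the count that fell in WT was 6.

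The same 8 genes fell in both genotypes: Eprs, Iars, Mars1, Rars, Tars, Phgdh, Psat1 and Mthfd2. Asns was called in mutants alone, and Cars, Hars and Atf4 in WT alone. The difference between the mutants' and the WT age change was called for 0 of these 12, so a call in 1 genotype alone is not shown to be particular to it. The change was negative in both genotypes for 22 of 28 genes and positive in both for 4 (Sars, Ddit3, Sesn2 and Shmt2). By function, 5 of 18 measured synthetases fell in mutants (27.8%, against 21.4% of all features) and 7 of 18 in WT (38.9%, against 23.5%). The share in mutants was near that of all features and is no result about the synthetases. Of the 3 serine and asparagine enzymes 3 fell in mutants and 2 in WT, of the 2 one-carbon enzymes 1 fell in each genotype, and of the 5 regulators 0 fell in mutants and 1 in WT. These sets hold only 2 to 5 measured genes, and no set was tested against the shares of all features.

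**Figure D3:**
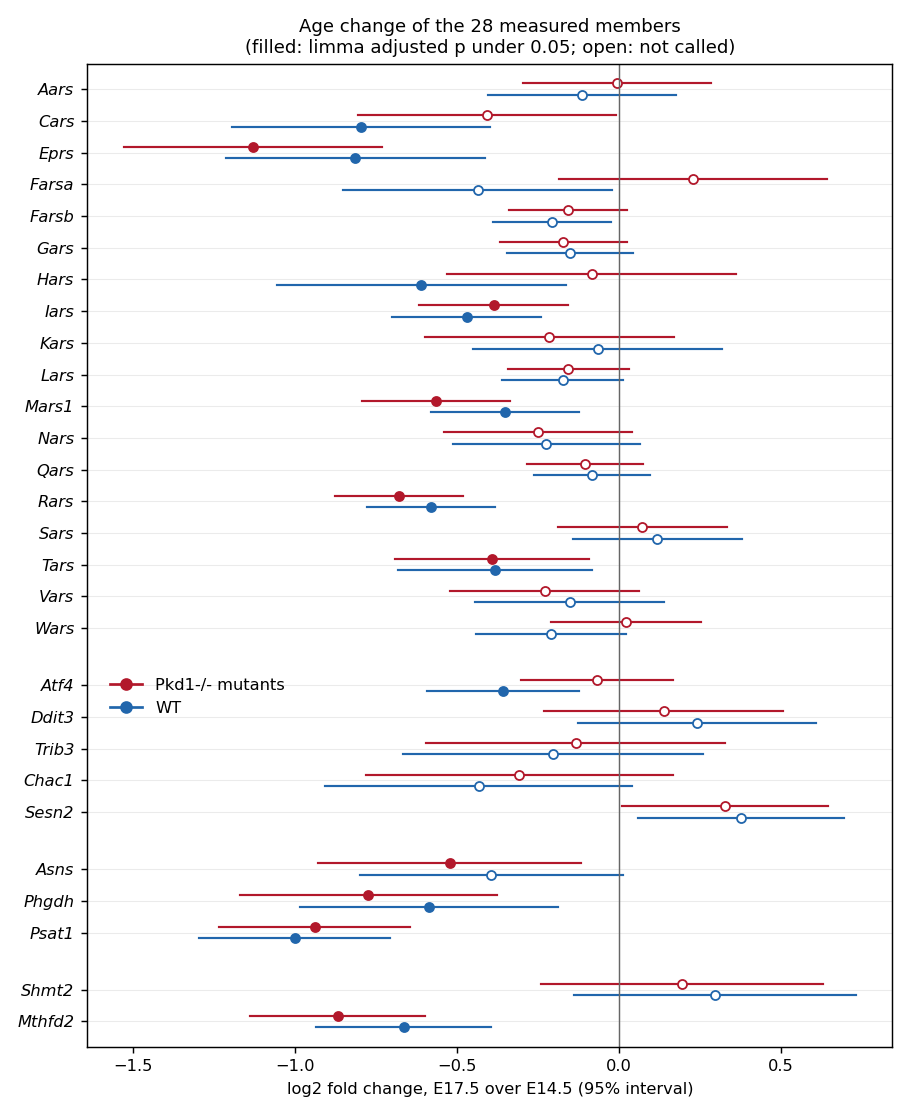
Log2 change in intensity, E17.5 minus E14.5, for the 28 measured genes in mutants (red) and WT (blue), with 95% confidence intervals and 3 arrays per group. Filled points were called, 9 in mutants and 11 in WT, and all of them lie below 0.

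The largest falls in mutants were those of Eprs, Psat1 and Mthfd2. Eprs charges both glutamate and proline transfer RNA. It was at 8.0, 8.57 and 8.78 in E17.5 mutants and 9.56, 9.45 and 9.72 in E14.5 mutants, so the E17.5 arrays were all lower. In WT it was at 9.02, 8.85 and 8.54 at E17.5, against 9.56, 9.68 and 9.60 at E14.5, again without overlap. The log2 change was -1.13 ± 0.18 in mutants (2.19-fold lower, adjusted p = 0.000522) and -0.81 ± 0.18 in WT (1.76-fold lower, adjusted p = 0.00389, limma). Psat1 performs the transamination step of serine synthesis. It was at 10.79, 10.95 and 11.20 in E17.5 mutants, against 11.82, 11.94 and 12 in E14.5 mutants. WT kidneys had 10.97, 10.96 and 10.67 at E17.5, against 11.65, 11.98 and 11.98 at E14.5. The ages did not overlap in either genotype, and Psat1 fell by 0.94 in mutants (SE 0.13, adjusted p = 0.000244) and by 1.00 in WT (SE 0.13, adjusted p = 0.000158, limma).

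Mthfd2 oxidizes the folate-bound one-carbon unit in mitochondria and is a gene of proliferating and embryonic cells. It was at 10.01, 10.33 and 10.26 in E17.5 mutants, against 10.83, 11.20 and 11.17 in E14.5 mutants. The WT values were 10.39, 10.49 and 10.50 at E17.5, against 10.98, 11.21 and 11.19 at E14.5. All E17.5 arrays lay below all E14.5 arrays, and the change was -0.87 ± 0.12 in mutants (1.83-fold lower, adjusted p = 0.000228) and -0.67 ± 0.12 in WT (1.59-fold lower, adjusted p = 0.00122, limma). Shmt2, the mitochondrial enzyme that takes the one-carbon unit from serine, did not follow on its brightest probe. It was at 8.39, 8.80 and 8.30 in E17.5 mutants and 8.28, 8.54 and 8.09 in E14.5 mutants. The WT arrays were at 8.51, 7.89 and 8.65 at E17.5 and 8.20, 7.97 and 8.0 at E14.5, so the ages overlapped in both genotypes.

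**Figure D4:**
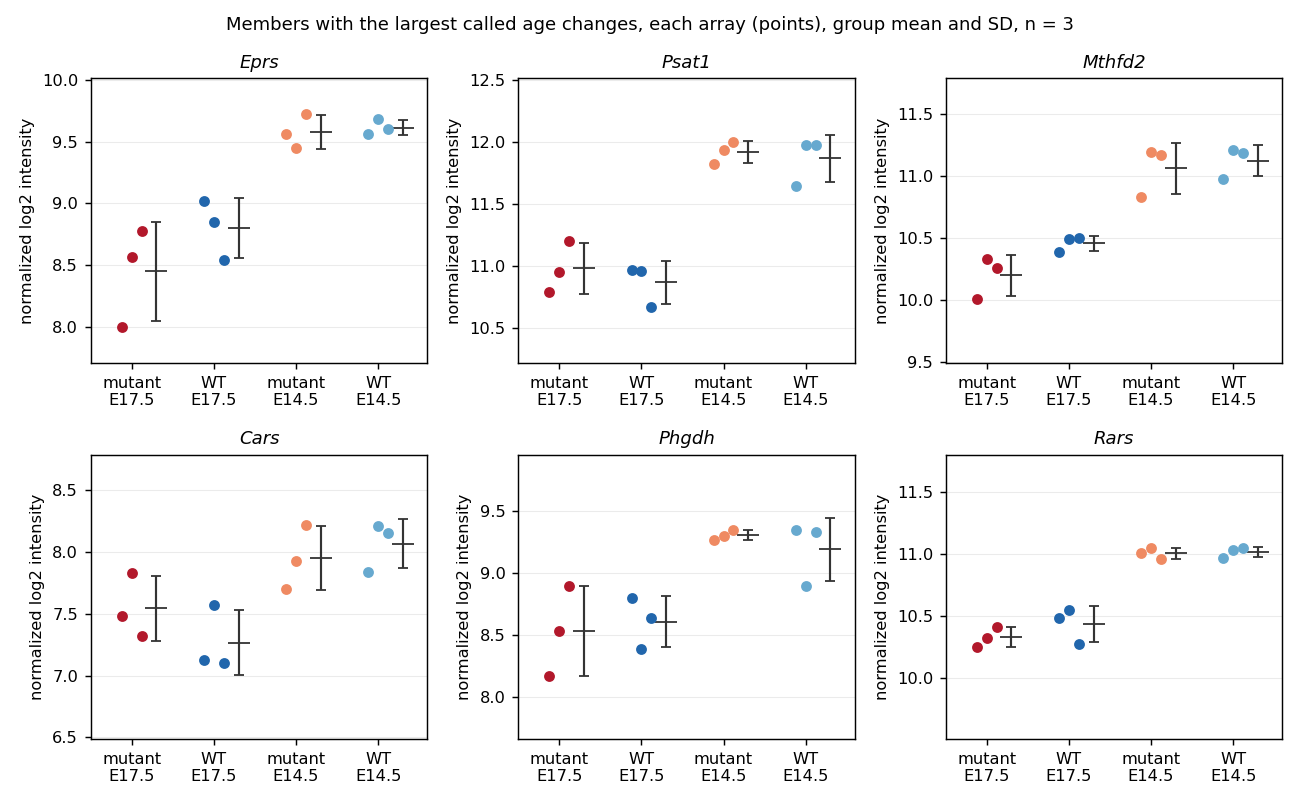
Log2 intensity of Eprs, Psat1, Mthfd2, Cars, Phgdh and Rars on each of the 12 arrays, in the order mutant E17.5, WT E17.5, mutant E14.5 and WT E14.5. For Eprs, Psat1, Mthfd2, Phgdh and Rars every E17.5 array lies below every E14.5 array of its genotype, and for Cars the ages overlap in mutants.

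Among the other enzymes, Phgdh, which opens the serine pathway, was at 8.17, 8.53 and 8.90 in E17.5 mutants, against 9.27, 9.30 and 9.35 in E14.5 mutants. WT kidneys were at 8.80, 8.39 and 8.64 at E17.5 and 9.35, 8.90 and 9.33 at E14.5. It fell by 0.77 in mutants (adjusted p = 0.00511) and by 0.59 in WT (adjusted p = 0.0212, limma). Asns, which makes asparagine, was at 10.27, 10.57 and 10.35 in E17.5 mutants and 10.65, 11.00 and 11.11 in E14.5 mutants, without overlap. The WT arrays gave 10.71, 10.43 and 9.98 at E17.5 and 10.58, 10.94 and 10.78 at E14.5, where the ages overlapped. The change was -0.52 in mutants (1.44-fold lower, adjusted p = 0.0388) and -0.39 in WT, which was not called (adjusted p = 0.105, limma). The call in mutants was lost without mutant E17.5 replicate 12 or 42, mutant E14.5 replicate 59 or 65, WT E17.5 replicate 38 or WT E14.5 replicate 58, with changes between -0.43 and -0.52. The WT fall of Phgdh was not called without WT E17.5 replicate 38 or WT E14.5 replicate 34 or 58, with changes between -0.48 and -0.52.

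Rars, the arginyl-tRNA synthetase, was lower on every E17.5 array. It was at 10.25, 10.32 and 10.41 in E17.5 mutants, against 11.01, 11.05 and 10.96 in E14.5 mutants. The WT values were 10.48, 10.55 and 10.27 at E17.5, against 10.97, 11.03 and 11.05 at E14.5. The fold was 1.60 lower in mutants (adjusted p = 0.000150) and 1.50 lower in WT (adjusted p = 0.000396, limma). The cysteinyl-tRNA synthetase Cars was at 7.48, 7.83 and 7.32 in E17.5 mutants and 7.70, 7.93 and 8.22 in E14.5 mutants, which overlapped. In WT it was at 7.13, 7.57 and 7.10 at E17.5, against 7.84, 8.21 and 8.15 at E14.5, all lower. Its change was -0.41 in mutants with an interval of -0.81 to -0.01 (adjusted p = 0.0904) and -0.80 in WT (1.74-fold lower, adjusted p = 0.00435, limma).

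Smaller falls were called for the methionyl-tRNA synthetase Mars1 (-0.57 in mutants and -0.35 in WT), for Iars (-0.39 in mutants and -0.47 in WT) and for Tars (-0.39 in mutants and -0.38 in WT). Hars changed by -0.09 in mutants, which was not called, and by -0.61 in WT (adjusted p = 0.0303, limma). The remaining synthetases were not called in either genotype. Their changes lay between -0.25 and 0.12 in both genotypes for Aars, Farsb, Gars, Kars, Lars, Nars, Qars, Sars, Vars and Wars, and Farsa was at 0.23 in mutants and -0.44 in WT. Among the regulators the brighter Atf4 probe changed by -0.07 in mutants, not called, and by -0.36 in WT (adjusted p = 0.0183, limma). Sesn2 changed by 0.33 in mutants (interval 0.01 to 0.64, adjusted p = 0.0895) and by 0.38 in WT (interval 0.06 to 0.69, adjusted p = 0.0543, limma), so neither was called. Several of these smaller calls in WT were lost when 1 array was left out. Hars was not called without replicate 57 or 58 at E14.5 or replicate 2 or 41 at E17.5, and its change was then between -0.50 and -0.60. Tars was not called without WT E14.5 replicate 57 or 58, WT E17.5 replicate 38 or 41, mutant E14.5 replicate 59 or mutant E17.5 replicate 40, with changes between -0.28 and -0.43. Mars1 was lost without WT E14.5 replicate 58 or WT E17.5 replicate 38 (-0.29 in both cases). Atf4 was lost without WT E14.5 replicate 57 or 58 or WT E17.5 replicate 41, with changes between -0.27 and -0.36. In mutants Tars was lost without any of 4 mutant arrays, replicates 12 and 40 at E17.5 and 59 and 65 at E14.5, with changes between -0.32 and -0.41. Both arrays with female levels of Xist were at E14.5, and with embryo sex as a covariate Tars and Asns were not called in mutants (7 genes called), nor Hars and Tars in WT (10 genes called).

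In mammals, 8 of these synthetases are carried in the multi-tRNA synthetase complex, the aspartyl, glutamyl-prolyl, isoleucyl, lysyl, leucyl, methionyl, glutaminyl and arginyl enzymes. Of its 7 measured members, 4 fell in each genotype (Eprs, Iars, Mars1 and Rars), with a median change of -0.39 in mutants and -0.35 in WT. Of the 11 measured synthetases outside it, 1 fell in mutants (Tars) and 3 in WT (Cars, Hars and Tars), with medians of -0.16 in mutants and -0.21 in WT. The scaffold proteins of the complex are not tRNA synthetases and were counted apart. All 3 of them, Aimp1, Aimp2 and Eef1e1, fell in both genotypes, by 0.39, 0.62 and 0.77 in mutants and by 0.48, 0.82 and 0.78 in WT. Of all features 21.4% fell in mutants and 23.5% in WT. The counts outside the complex lay below or near those shares and are no result about those genes. The difference between the 2 sets of synthetases was not tested.

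Probe by probe, the fall with age was broader than the brightest probes show. Of the 51 kept probes, 24 (47.1%) fell in mutants, against 24.0% of all kept probes, and 24 fell in WT, against 25.0% (limma, adjusted over all kept probes). In each genotype 16 of the 28 genes had at least 1 probe that fell, where 28.6% of all named genes did in mutants and 29.2% in WT, but genes with more kept probes have more chances to be counted. The third Asns and the third Vars probe were detected on too few E17.5 arrays to be kept by that age alone. Without them 22 of 49 probes fell in mutants and 23 in WT, in 15 genes in each genotype. In WT 1 probe rose, the dimmer Atf4 probe. All 3 Eprs probes fell, with changes between -0.70 and -1.64 in mutants and between -0.63 and -1.21 in WT. Both Mthfd2 probes, both Mars1 probes and both Rars probes fell in both genotypes. The second Tars probe was not called in either genotype (-0.19 in mutants and -0.25 in WT), nor was the second Iars probe in mutants (-0.27). For 7 genes in mutants (Farsb, Kars, Qars, Vars, Wars, Atf4 and Shmt2) and 5 in WT (Kars, Lars, Qars, Wars and Asns), a dimmer probe fell while the brightest was not called, which for Vars in mutants and Asns in WT rests on those 2 probes.

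**Figure D5:**
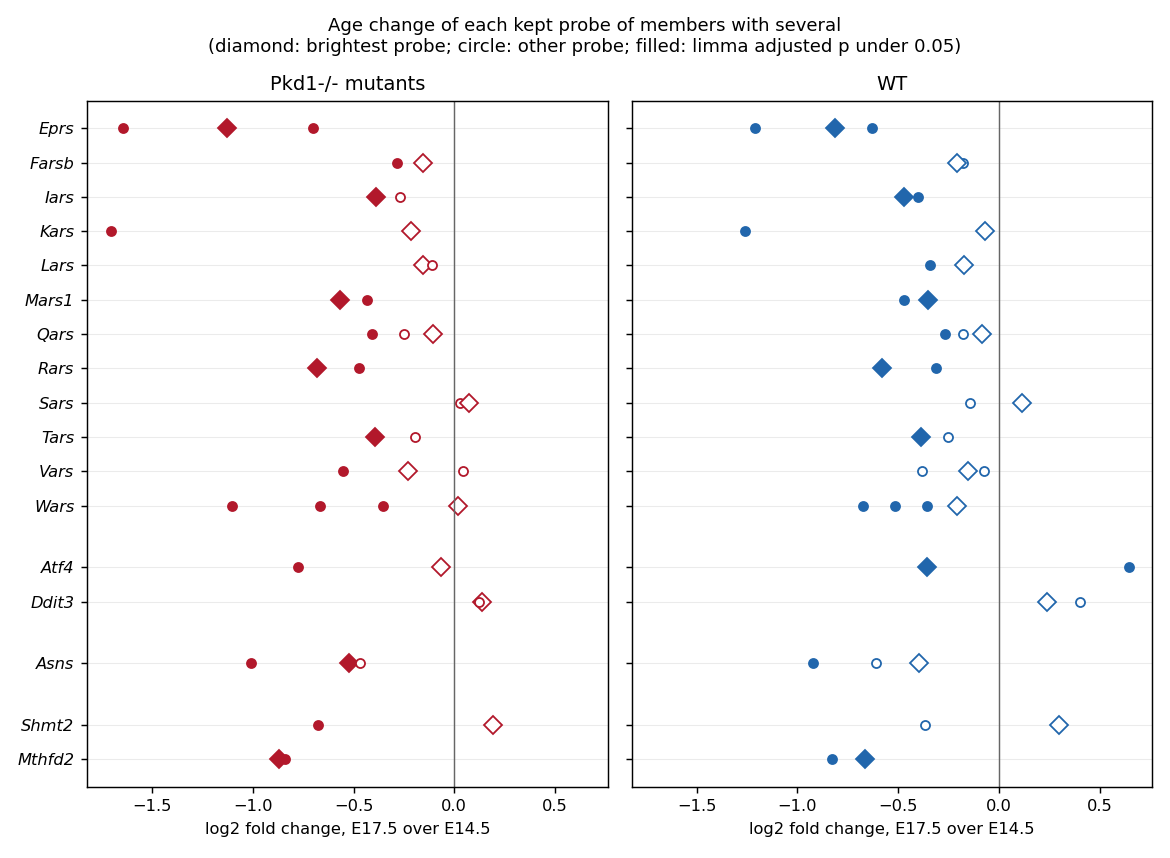
Log2 change in intensity, E17.5 minus E14.5, of every kept probe of the 17 genes with several, in mutants (left) and WT (right). Diamonds are the brightest probe of a gene and circles the others, and filled marks were called, 1 of them above 0, the dimmer Atf4 probe in WT. Filled marks include the third Asns probe and, in mutants, the third Vars probe, which were kept only through the E14.5 arrays.

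The widest gap between probes of a synthetase was that of Kars, the lysyl-tRNA synthetase, picked out after its values were seen. Its brightest probe was at 9.85, 10.01 and 10.21 in E17.5 mutants and 10.16, 10.37 and 10.20 in E14.5 mutants, and changed by -0.22, which was not called. Its dimmer probe was at 6.10, 6.14 and 5.90 in E17.5 mutants, against 7.67, 7.69 and 7.89 in E14.5 mutants. In WT that probe was at 6.69, 6.61 and 6.09 at E17.5, against 7.74, 7.52 and 7.93 at E14.5. The ages did not overlap in either genotype, and the change was -1.71 ± 0.16 in mutants (adjusted p = 1.69e-05) and -1.26 ± 0.16 in WT (adjusted p = 0.000106, limma).

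Probes of 1 gene had changes of opposite sign, with at least 1 of them called, for Vars, Wars and Shmt2 in mutants and for Atf4 in WT. For Wars and Shmt2 the positive change was not called, so a fall stood beside no detected change. Wars, the tryptophanyl-tRNA synthetase, had 4 kept probes. The brightest was at 9.66, 9.55 and 9.47 in E17.5 mutants, 9.23, 9.39 and 9.46 in E17.5 WT, 9.54, 9.61 and 9.48 in E14.5 mutants and 9.44, 9.76 and 9.51 in E14.5 WT. It changed by 0.02 in mutants, while the other probes fell by 0.35 (adjusted p = 0.0429), 0.67 (adjusted p = 0.00253) and 1.10 (adjusted p = 0.000284, limma). The last of these was at 5.0, 5.35 and 5.47 in E17.5 mutants, where it was detected on 1 of 3 arrays, against 6.35, 6.18 and 6.61 in E14.5 mutants. Vars, the valyl-tRNA synthetase, was at 10.02, 9.80 and 9.81 in E17.5 mutants and 9.98, 10.30 and 10.04 in E14.5 mutants on its brightest probe. The third Vars probe was at 5.33, 5.12 and 5.34 in E17.5 mutants, not well above background on any of them, against 5.61, 6.13 and 5.70 in E14.5 mutants. That probe was kept only through the E14.5 arrays, on 4 of which it was detected, so no test is given for its fall. The second Vars probe changed by 0.04.

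The second Shmt2 probe was at 5.42, 5.57 and 5.47 in E17.5 mutants, detected on 2 of 3 arrays, against 6.22, 6.06 and 6.21 in E14.5 mutants. It fell by 0.68 (adjusted p = 0.00593, limma), where the brightest probe changed by 0.19. In WT it was at 6.08, 5.27 and 5.72 at E17.5 and 6.09, 6.15 and 5.93 at E14.5, which overlapped. The third Asns probe was detected on 0 of 6 arrays at E17.5 and 6 of 6 at E14.5, so it too was kept only through the age where it was high, and no test is given for it. It was at 5.13, 5.18 and 4.95 in E17.5 mutants, against 5.77, 6.16 and 6.36 in E14.5 mutants. In WT it was at 5.43, 5.12 and 4.79 at E17.5, against 6.04, 6.26 and 5.81 at E14.5.

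Some other genes that ATF4 is known to control differed between genotypes at E17.5. Their list was chosen with earlier results of these data known, so the share called is no test of the list. Of 18 measured genes on a list of 27, 5 were called (27.8%, against 3.16% of all features), 4 higher and 1 lower in mutants, and 0 were called at E14.5. Gpt2, a mitochondrial alanine aminotransferase, was at 9.59, 9.17 and 9.12 in E17.5 mutants, against 8.36, 8.49 and 8.40 in E17.5 WT (0.88 ± 0.15, adjusted p = 0.0112, limma). Atf3, a stress-induced transcription factor, was at 6.57, 6.69 and 6.31 in mutants, against 5.79, 5.78 and 5.35 in WT (0.88 ± 0.17, adjusted p = 0.0195, limma). Atf5, a factor related to ATF4, was at 9.82, 9.56 and 9.59 in mutants, against 9.15, 9.15 and 9.18 in WT (0.50 ± 0.10, adjusted p = 0.0292, limma). For all 3 genes every mutant array lay above every WT array. Slc1a4, a transporter of alanine, serine and cysteine, was at 7.94, 7.85 and 7.85 in mutants, against 7.41, 7.44 and 7.34 in WT (0.49 ± 0.09, adjusted p = 0.0151, limma). Cth, which makes cysteine from cystathionine, was at 7.48, 7.72 and 7.87 in mutants, against 9.12, 8.65 and 8.37 in WT (-1.02 ± 0.18, adjusted p = 0.0152, limma), and so was lower on every mutant array. The difference between the E17.5 and E14.5 genotype differences was called for 0 of the 18 (lowest adjusted p = 0.0746, Gpt2, limma). Without WT E17.5 replicate 2, the array with high liver markers, 4 of the 18 were called and Atf5 was not (adjusted p = 0.0785, limma), and Cth was at -0.82 (adjusted p = 0.0411).

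With age, 6 of these 18 genes rose and 1 fell in mutants, and 5 rose and 2 fell in WT. That is 38.9% called in each genotype, below the 43.1% and 43.6% of all features given earlier, so the count is no result about the list. Among those that rose were Nupr1 and Cebpb, stress-responsive transcription regulators, by 1.28 and 1.03 in mutants and by 1.26 and 0.88 in WT, and Gpt2, by 1.35 in mutants. Slc1a4 fell in both, by 0.30 in mutants and by 0.67 in WT, and Aldh1l2, a mitochondrial folate enzyme, fell by 0.78 in WT.

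The kinases, phosphatases and exchange factor subunits that act on eIF2 showed 0 of 10 measured genes called between genotypes at either age. With age 3 fell and 2 rose in mutants, and 2 fell and 2 rose in WT, counts near the 43.1% and 43.6% of all features called. The exchange factor subunits Eif2b1 and Eif2b3 fell, by 0.73 and 0.45 in mutants and by 0.50 and 0.35 in WT. Ppp1r15a, which directs dephosphorylation of eIF2, rose by 0.72 in mutants and by 0.42 in WT, and the heme-regulated kinase Eif2ak1 rose by 0.31 in mutants and by 0.28 in WT. The kinases that sense endoplasmic reticulum stress and uncharged transfer RNA, Eif2ak3 and Eif2ak4, were not measured. Of 14 measured chaperones and unfolded protein response genes 0 were called between genotypes at either age. With age the chaperone Calr fell by 1.17 in mutants and by 0.75 in WT, and Herpud1, a gene of endoplasmic reticulum protein degradation, rose by 0.70 in mutants and by 0.80 in WT.

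Among the mitochondrial tRNA synthetases and subunits of the mitochondrial amidotransferase, listed together, a few rose and a few fell with age. Of 17 measured, 0 were called between genotypes at either age by their brightest probe, and the second Gatc probe was at -0.69 at E17.5 (adjusted p = 0.033, limma). In mutants 3 fell (Pars2, Rars2 and Gatc, a subunit of the mitochondrial amidotransferase for glutamine transfer RNA) and 2 rose (Fars2 and Vars2), and in WT 2 fell (Mars2 and Wars2) and 2 rose (Fars2 and Vars2). That is 29.4% called in mutants and 23.5% in WT, below the 43.1% and 43.6% of all features. The counts are thus no result about these genes. Fars2 rose by 0.31 in mutants and by 0.42 in WT, and Vars2 by 0.41 in mutants and by 0.48 in WT. Of 5 measured folate enzymes outside the ATF4 list, Tyms, which makes thymidylate, fell by 0.91 in mutants and by 1.11 in WT, and Shmt1, the cytosolic counterpart of Shmt2, by 0.49 in mutants and by 0.55 in WT. Gldc, of the glycine cleavage system, fell by 0.67 in WT, and the kept probes of Mthfd1, a cytosolic folate enzyme, went opposite ways. The brighter Mthfd1 probe rose by 0.46 in mutants and by 0.42 in WT, and the dimmer fell by 1.64 in mutants (adjusted p = 0.00656) and by 1.12 in WT (adjusted p = 0.0425, limma), so no direction is given for that gene.

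Markers of cell types moved with age as well. The mean log2 intensity of the 18 synthetases was 9.91 to 9.97 in E17.5 mutants, 9.86 to 9.92 in E17.5 WT, 10.11 to 10.25 in E14.5 mutants and 10.10 to 10.28 in E14.5 WT. That of 6 measured cell division markers was 10.27 to 10.64 in E17.5 mutants, 10.15 to 10.38 in E17.5 WT, 11.09 to 11.18 in E14.5 mutants and 10.99 to 11.24 in E14.5 WT, and 5 of the 6 fell in mutants and 6 of 6 in WT. That of 6 measured proximal tubule markers was 8.64 to 9.12 in E17.5 mutants, 10.66 to 11.15 in E17.5 WT, 6.67 to 6.77 in E14.5 mutants and 6.18 to 7.39 in E14.5 WT, and 5 of 6 rose in mutants and 6 of 6 in WT. At E17.5, 3 of the 6 were lower in mutants (Miox, Kap and Dpep1). The mean of 5 measured macrophage markers was 7.18 to 7.60 in E17.5 mutants and 7.08 to 7.38 in E17.5 WT, which overlapped, and 1 of the 5 was called higher in mutants. The part of these cell types in the changes of the synthetases, of Atf4 and of the genes ATF4 controls was not tested.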

How the data were processed

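Total kidney RNA was hybridised to 12 arrays, in 4 groups of 3. The intensities used were deposited by the authors without normalization between arrays, as BeadStudio gave them, beside detection p-values, which the authors also deposited. Of these intensities 31.3% to 34.0% were at or under 0 on each array, so some background had been subtracted before the correction described next. The normalized intensity table that the authors deposited had a median of 72.0 on each array and served only as an alternative. The study's methods describe reading with beadarray, background subtraction, log2 and quantile normalization. They do not say that the deposited table holds those values, and with that median it was not on the log2 scale. 0 columns lacked a sample. Intensities were corrected with limma 3.58.1 (R 4.3.3) by normexp with detection p, with offset 16, put on the log2 scale and quantile normalized, so a fold change of a dim probe is understated. Probes with a detection p under 0.05 on 3 or more arrays were kept (21526), and the brightest on average stood for its gene. A model of 4 group means was fitted with lmFit and eBayes over 14882 features, and again over all kept probes. Scripts were tested on simulated data. Slides are not given in the sources used here, and the number of arrays limits the precision.

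The genes and lists were chosen with earlier results of these data known. Values on every array were given for Atf4, Ddit3, Trib3, Chac1, Asns and Sesn2, for genes whose probes had changes of opposite sign with a call, for those called between genotypes and for the 4 with the largest called age change in each direction. Farsa, Hars and Kars were added after their values were seen. Atf4 was set down for a comparison probe by probe because its probes were known to disagree. Of other lists, genes called between genotypes and up to 3 per direction with age were named. Alternatives were the background correction, offset, normalization, dim-probe filter, probe summary, arrays fitted, variance model, array weights, embryo sex, value table, call rule and each array left out. The fit without WT E17.5 replicate 2 for the other ATF4 genes was chosen after seeing the data.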

Additional observations from a re-analysis of the deposited data

Results flagged for a closer look

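The dimmer Atf4 probe differed in its genotype effect between ages, by a test of that difference in the limma fit of all kept probes. Mutant minus WT was -1.34 at E17.5 and 0.08 at E14.5, a difference of -1.42 on the log2 scale (adjusted p = 0.00541). All 3 E17.5 mutant arrays lay below all 3 E17.5 WT arrays. The brighter Atf4 probe gave 0.29 for the same quantity (adjusted p = 0.521, limma gene fit). The disagreement of the Atf4 probes was known before these tests were run.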

How the results depend on the processing

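The count of genes called between genotypes at E17.5 was 1 in place of 0 with the mean of kept probes (Atf4, lower in mutants) and 1 with array weights (Shmt2), and it was 0 with each array left out. With array weights the genes with a called probe between genotypes at E17.5 numbered 4 (Atf4, Eprs, Kars and Shmt2) in place of 1, and with each array left out 1. The genes called with age in mutants numbered 15 with array weights (14 lower, and Sesn2 higher), 1 at the study's thresholds (Eprs) and between 7 and 10 with 1 array left out, the 10 including Sesn2, higher. In WT they numbered 19 with array weights (18 lower, and Sesn2 higher), 1 at the study's thresholds (Psat1) and between 6 and 12 with 1 array left out, the 6 being without WT E14.5 replicate 58, which lost Hars, Mars1, Tars, Atf4 and Phgdh, and the 12 without WT E17.5 replicate 2 including Sesn2, higher. Cyclic loess lost Hars, Tars and Phgdh in WT and Tars and Asns in mutants, and embryo sex as a covariate lost Hars and Tars in WT and Tars and Asns in mutants. With the mean of kept probes the change of Atf4 in WT reversed to 0.14. In mutants that setting lost Tars and added Kars, Qars, Wars and Atf4. Eprs, Psat1, Mthfd2, Rars and Iars were called in both genotypes in each of these refits at an adjusted p under 0.05. The dimmer Atf4 probe was between -1.23 and -1.44 at E17.5 and called in each alternative, and its difference between ages was not called from the authors' value table (adjusted p = 0.0619). The cause of these changes was not tested. Of 546 refits of 24 named results, 497 kept direction and side of the threshold, 48 lost the call and 1 reversed. No paired analysis was possible because the groups share no replicate numbers. Hars, Trib3, Sesn2 and the dimmer probes of Vars, Wars, Shmt2 and Asns lay near background, where changes are understated.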
